A study of Mus musculus with 6 samples.

Results

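Keratins are the intermediate filament proteins of epithelium, and 8 keratin genes are described here in alveolar type II (ATII) cells of mouse lung: Krt8, Krt18, Krt7 and Krt19 of simple epithelium, and Krt5, Krt14, Krt15 and Krt17, best known from basal and stratified epithelium. They were chosen by name and looked up in the GENCODE annotation of GRCm38, where each matched 1 of the 52636 gene IDs in the count matrix. The study measured ATII cells, the surfactant-making stem cells of the alveolus, from young and old mice by droplet sequencing of single-cell RNA. Per the labels, the 3 expression libraries held fresh sorted cells at day 0 from mice young and old, cultured cells at day 13 from mice of both ages, and cultured cells at day 13 from young mice alone. Another 3 libraries held multiplexing tags and were not analysed here. Each group has 1 library, all mice carried wild-type IL4Ra, the lung was the source of every sample, and the treatment label of each is a mixed sample. In the study's culture design the cytokine at 10 ng/ml, or PBS, was added from day 3. That cytokine is IL-4 in the series title, and an interleukin of another number in the design text.

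The matrix held 36584 cell barcodes with 3 library tokens, called A, B and C here. The tokens match no label, so the day, age and treatment of each library are unknown and no comparison of those was made. After filtering, 16367 cells of library A, 5593 of library B and 14580 of library C were kept, 36540 in all, with 63658436, 48676834 and 53329664 UMIs and medians of 3749, 8349 and 3341 UMIs per cell. A UMI (unique molecular identifier) counts 1 captured RNA molecule at its 3′ end, whatever the length of the transcript. Levels of different genes are set side by side in UMIs per 1000000 (CPM). Capture can still differ between genes and was not measured. Between libraries 109 barcode sequences recurred. All 10 ATII markers reached 20 CPM in every library and summed to 333341, 149434 and 132001 CPM. Markers of other cells were low in comparison, with airway secretory markers at 2568 CPM in library A, of which 2503 CPM was Scgb1a1, against 131 and 59.3 CPM in libraries B and C. Ciliated markers summed to 150, 3.14 and 12.1 CPM, and endothelial markers to 88.8, 0.842 and 1.013 CPM, of which Pecam1 gave 88.7 CPM in library A. Macrophage, lymphocyte and fibroblast markers summed to at most 12.7, 2.25 and 0.131 CPM in any library, and among them Marco, Ear2, Nkg7 and Col1a2 had 0 UMIs in every library. Since the tokens are not mapped and cells are not replicates, no test was run: each interval given is an exact 95% interval of counting error alone.

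Keratin filaments are built from obligate pairs of a type I and a type II chain. Among the 8 genes, Krt8, Krt7 and Krt5 encode type II chains, and Krt18, Krt19, Krt14, Krt15 and Krt17 encode type I chains. Krt8 and Krt18 are partners in every simple epithelium, Krt7 and Krt19 are added in ducts and airways, and Krt5 with Krt14 marks basal cells. In injured mouse lung, high Krt8 is known as a mark of a transitional cell state between ATII and ATI cells, the flat cells of gas exchange.

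In GRCm38, Krt8 (ENSMUSG00000049382) lies at chr15:101996698-102004482 on the minus strand. Krt18 (ENSMUSG00000023043), although a type I gene, lies beside it at chr15:102028180-102032027 on the plus strand, 23.7 kb away. Krt7 (ENSMUSG00000023039) lies at chr15:101411043-101430313 and Krt5 (ENSMUSG00000061527) at chr15:101707070-101712898, in the type II cluster. The other type I genes lie on chromosome 11: Krt19 (ENSMUSG00000020911) at chr11:100140810-100148665 has Krt15 (ENSMUSG00000054146) 4.88 kb away, and Krt14 (ENSMUSG00000045545) and Krt17 (ENSMUSG00000035557) follow at chr11:100203162-100207548 and chr11:100256217-100261029. Of 411 windows of 90 bases in the last 500 bases of each transcript, 0 recurred exactly in a transcript of another gene for any of the 8. A copy with a mismatch in every window would not be found this way.

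RefSeq's promoter table for GRCm38.p6 held 5 of the 8 genes. The promoters of Krt8, Krt18 and Krt7 are shown, since the results turn on these genes and on Krt19. Each runs from 250 bases before to 50 bases after the annotated start, and capitals mark motif matches. Krt8 is at chr15:102004293-102004592 on the minus strand, Krt18 at chr15:102027966-102028265 on the plus strand and Krt7 at chr15:101412153-101412452 on the plus strand.
Krt8: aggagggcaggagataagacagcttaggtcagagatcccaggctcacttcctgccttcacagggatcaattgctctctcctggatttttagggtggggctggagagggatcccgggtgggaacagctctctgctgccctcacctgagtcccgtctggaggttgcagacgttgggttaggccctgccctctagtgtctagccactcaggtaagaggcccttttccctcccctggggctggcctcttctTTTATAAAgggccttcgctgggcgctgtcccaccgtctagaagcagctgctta
Krt18: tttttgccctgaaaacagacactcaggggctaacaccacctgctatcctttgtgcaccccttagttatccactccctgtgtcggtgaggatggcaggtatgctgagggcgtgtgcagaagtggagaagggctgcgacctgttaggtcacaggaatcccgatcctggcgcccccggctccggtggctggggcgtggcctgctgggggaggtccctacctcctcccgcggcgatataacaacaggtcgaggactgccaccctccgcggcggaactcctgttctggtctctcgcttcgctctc
Krt7: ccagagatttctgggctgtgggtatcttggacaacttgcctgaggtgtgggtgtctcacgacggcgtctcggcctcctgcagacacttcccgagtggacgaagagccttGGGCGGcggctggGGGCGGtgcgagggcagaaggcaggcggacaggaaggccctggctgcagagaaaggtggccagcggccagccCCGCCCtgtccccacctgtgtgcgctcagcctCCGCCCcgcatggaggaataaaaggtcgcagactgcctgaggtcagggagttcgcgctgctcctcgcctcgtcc
Searched on both strands were the GC box GGGCGG, present in 35.7% of 32851 promoters of this length, the TATA box TATAAA in 13.6%, the CCAAT box CCAAT in 37.4%, the AP-1 motif TGANTCA in 7.81%, the TEAD motif GGAATG in 14.7% and the STAT6 motif (TTC and GAA spaced by 4 bases) in 6.95%. Krt7 held 4 GC boxes. Krt8 held TATAAA on each strand, the 2 matches overlapping at the annotated start, and Krt18 held 0 of the 6 motifs. The G and C content was 58.0% in Krt8, 61.3% in Krt18 and 66.3% in Krt7. A match is a run of letters and not a measured binding site.

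The cells expressed the simple epithelial keratins, led by Krt18 and Krt8, and no basal pair. Krt18 was at 695 CPM (688 to 701) in library A, 1045 CPM (1036 to 1054) in library B and 952 CPM (944 to 961) in library C. Its type II partner Krt8 was at 504 CPM (499 to 510), 487 CPM (481 to 493) and 567 CPM (561 to 573) in the same order. Krt8 thus varied little between libraries, while Krt18 was above it in each and furthest above it in library B.

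Krt7 and Krt19 were the minor pair and differed more between libraries. Krt7 was at 66.2 CPM (64.2 to 68.3) in library A, 193 CPM (189 to 197) in library B and 259 CPM (255 to 264) in library C. Krt19 was at 52.0 CPM (50.2 to 53.8), 276 CPM (271 to 280) and 314 CPM (310 to 319). Both were lowest in library A, where Krt7 was above Krt19, and highest in library C, with Krt19 above Krt7 in libraries B and C. In each library and for each of these 4 genes, the counting intervals did not overlap those of the other libraries. The share of all genes for which this holds was not counted. Levels also depend on the totals, and Sftpc took 255076 CPM of library A but 128764 of B and 116228 of C. With Sftpc and Retnla left out of totals, cells lacking Mki67 and Top2a UMIs had Krt8 at 677 (A), 594 (B) and 679 (C) CPM. With full totals, Krt8 in those cells was at 504 (A), 508 (B) and 581 (C) CPM. Krt18, Krt7 and Krt19 kept their order of libraries. Krt7 and Krt19 together gave 8.97%, 23.4% and 27.4% of the UMIs of the 8 genes in libraries A, B and C, which summed to 1318, 2001 and 2094 CPM.

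The basal keratins Krt5 and Krt14 had 0 UMIs in every library, which allows a share of cells with a UMI of up to 0.0183%, 0.0536% and 0.0206% and a level of up to 0.0471, 0.0616 and 0.0563 CPM, for libraries A, B and C in turn. Krt15, a keratin of basal and hair follicle stem cells, had 45, 4 and 36 UMIs, in 44, 4 and 36 cells. Krt17, a keratin induced in stressed and wounded epidermis, had 0, 3 and 4 UMIs, and the largest number in 1 cell was 3. The transcription factor Trp63, which defines basal cells, had 7, 2 and 3 UMIs, and of 6 basal markers 1 reached 20 CPM, Icam1, at 204, 193 and 246 CPM. Markers of mesothelium, another keratin-rich tissue of the lung, summed to 0.267, 4.09 and 8.16 CPM. Thus 4 of the 8 genes reached 20 CPM, and the levels and folds that follow are of those 4. Of 47 other symbols of the Krt family, 1 reached 20 CPM: Krt23, a type I keratin, at 105, 57.8 and 32.1 CPM, an order opposite to that of Krt7 and Krt19. Krt10, a type I keratin of the upper epidermis, was at 9.71, 8.34 and 8.16 CPM, and 19 of the 47 had 0 UMIs.

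Keratin detection followed the same order of genes. At an equal depth of 2000 UMIs per cell, which 16079, 5564 and 13291 cells reached and 288, 29 and 1289 did not, Krt18 was found in 66.2%, 81.5% and 80.5% of cells of libraries A, B and C (82.0%, 98.4% and 91.2% at full depth). Krt8 was found in 55.9%, 58.7% and 63.2% (73.3%, 93.1% and 78.5% at full depth). Krt7 was found in 11.7%, 27.4% and 34.6% (20.4%, 61.6% and 48.8%), and Krt19 in 9.48%, 36.1% and 37.7% (15.9%, 75.8% and 52.6%). No cell class here lacks keratin, so the part of these shares that comes from free RNA in the droplets was not measured. The variance over the mean across cells at equal depth, which counting alone sets at 1 and which tends to be lower at a lower mean, was 1.14, 3.49 and 2.03 for Krt7 and 1.20, 2.38 and 2.13 for Krt19 in libraries A, B and C. For Krt8 it was 1.56, 1.89 and 1.38, and for Krt18 1.76, 2.58 and 1.56. Thus in library A both minor genes were below both main genes, in library C above them, and in library B Krt7 was highest and Krt19 lay between Krt8 and Krt18. The highest cells of library B held 134 UMIs of Krt8 and 195 of Krt18 at full depth, and 19 and 50 at 2000 UMIs per cell.

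UMIs of type I genes outnumbered those of type II genes. The 3 type II genes gave 43.3%, 34.0% and 39.5% of the keratin UMIs of libraries A, B and C. Counting only Krt8 and Krt18, Krt8 gave 42.1%, 31.8% and 37.3%. In cells with at least 10 keratin UMIs, which were 2078 of library A, 4148 of library B and 3856 of library C, the median type II share was 41.9%, 31.8% and 38.9%. From the 10th to the 90th percentile it ran from 20% to 66.7%, from 15.7% to 50% and from 18.2% to 60%. The variance of this share was 1.71, 1.75 and 1.57 times what binomial counting gives. Cells with only type I UMIs numbered 17, 29 and 26, and cells with only type II UMIs 3, 0 and 1. The cells were chosen for their keratin UMIs and were 12.7%, 74.2% and 26.4% of libraries A, B and C. At these type II shares, counting alone leaves few cells of 10 or more keratin UMIs with only 1 type. These numbers therefore do not show pairing.

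At 2000 UMIs per cell, both types were found in 44.3% of cells of library A, 60.6% of library B and 65.7% of library C. Only type I was found in 24.4%, 26.2% and 20.9%, only type II in 16.0%, 7.49% and 8.81%, and neither in 15.3%, 5.68% and 4.57%. These shares depend on the level of each type, and the shares that levels alone would give were not computed. Krt18 was found in 71.6% of cells with Krt8 and 59.2% of cells without it in library A. It was found in 85.1% of cells with Krt8 and 76.4% without in library B, and in 82.4% with Krt8 and 77.2% without in library C. Krt19 was found in 12.2% of cells with Krt7 and 9.12% of cells without it in library A. It was found in 50% of cells with Krt7 and 30.9% without in library B, and in 47.3% with Krt7 and 32.7% without in library C. Across cells at equal depth, log levels of Krt8 and Krt18 had Pearson r = 0.23, 0.28 and 0.15, and those of Krt7 and Krt19 had r = 0.04, 0.36 and 0.26. Pairs of 1 type were related too: r was 0.08, 0.24 and 0.13 for Krt8 with Krt7, and 0.08, 0.25 and 0.18 for Krt18 with Krt19. So were the other pairs of a type II with a type I gene. Their r was 0.09, 0.27 and 0.17 for Krt8 with Krt19, and 0.07, 0.22 and 0.13 for Krt7 with Krt18. In library C, r was thus higher for Krt8 with Krt19 than for Krt8 with Krt18. These correlations are across cells of 1 library that share its preparation, so they describe the libraries.

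**Figure D1:**
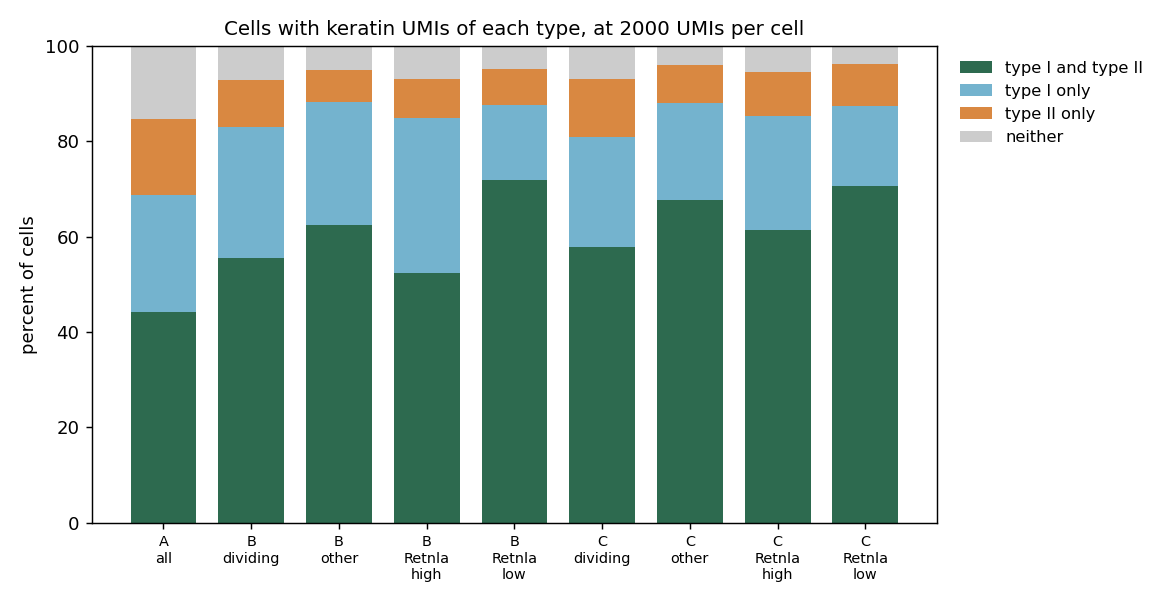
Shares of cells, in percent at 2000 UMIs per cell, in which type I and type II keratins, only type I, only type II or neither were found, for each library and, in libraries B and C, for Retnla-high beside Retnla-low cells. Cells with both types are 52.4% of Retnla-high and 71.8% of Retnla-low cells in library B. The shares also depend on the level of each type.

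Retnla encodes RELMalpha, a secreted protein known as a target of IL-4 and IL-13 signalling in mouse macrophages and lung epithelium. Cells were called Retnla-high with at least 1% of their UMIs from Retnla and Retnla-low with under 0.1%, and the fraction is not a label of treatment. Library B held 2310 high and 1567 low cells and library C 7595 and 6018, while library A held 2 high cells and gave no comparison. A gene passed the size rule with at least 20 CPM on either side and a 2-fold difference, taken as log2(CPM + 1).

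The minor pair was lower in Retnla-high cells. Krt7 was at 99.1 CPM (95 to 103) in Retnla-high and 462 CPM (449 to 475) in Retnla-low cells of library B, a log2 fold of -2.21 (-2.29 to -2.15). In library C it was at 174 CPM (170 to 179) in Retnla-high and 371 CPM (363 to 380) in Retnla-low cells, a log2 fold of -1.09 (-1.14 to -1.04). Krt19 was at 142 CPM (137 to 147) in Retnla-high and 583 CPM (569 to 597) in Retnla-low cells of library B, with a log2 fold of -2.03 (-2.10 to -1.97). In library C it was at 156 CPM (152 to 161) in Retnla-high and 519 CPM (510 to 529) in Retnla-low cells, with a log2 fold of -1.73 (-1.78 to -1.68). Both passed the size rule in both libraries.

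The main pair differed less. Krt8 was at 381 CPM in Retnla-high and 718 CPM in Retnla-low cells of library B, a log2 fold of -0.91 (-0.96 to -0.87), and at 503 CPM in Retnla-high and 648 CPM in Retnla-low cells of library C (-0.36). Krt18 was at 935 CPM in Retnla-high and 1223 CPM in Retnla-low cells of library B, a log2 fold of -0.39, and at 916 CPM in Retnla-high and 961 CPM in Retnla-low cells of library C, a log2 fold of -0.07 (-0.10 to -0.04) that turned to 0.01 with TMM scaling, which sets totals by the trimmed mean of all gene ratios. Of the 4 genes at 20 CPM, 2 were thus lower past the size rule in each library and 0 higher. By that rule 3.57% of 4878 genes of library B and 2.64% of 4738 genes of library C were lower, and 2.36% and 2.07% higher. The median log2 fold of the 4 was -1.47 in library B, where that of all genes measured was -0.13, and -0.72 in library C, where that of all genes was -0.07. With TMM scaling the share of higher calls among all genes called was 50.8% in library B, against 39.8% without it, and Krt7 and Krt19 stayed past the rule, where 2.69% of genes of library B and 2.28% of library C were lower. Krt7 was then at -2.06 and -1.01, and Krt19 at -1.88 and -1.65, in libraries B and C.

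Across 4 ranges of the Retnla fraction (under 0.1%, 0.1% to 1%, 1% to 3%, and 3% or more) Krt19 was at 583, 248, 150 and 108 CPM in library B, while in library C it was at 519, 453, 178 and 145 CPM. Krt7 was at 462, 137, 101 and 91.2 CPM in library B, while in library C it was at 371, 321, 180 and 171 CPM. In library B the largest step lay between the first and second ranges, and in library C between the second and the third. Krt8 was at 718, 475, 383 and 372 CPM in library B, while in library C it was at 648, 635, 521 and 494 CPM. Krt18 was at 1223, 1077, 943 and 902 CPM in library B, while in library C it peaked in the second range, at 961, 1242, 951 and 898 CPM. These ranges held 1567, 1716, 1855 and 455 cells of library B and 6018, 967, 2555 and 5040 of library C.

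**Figure D2:**
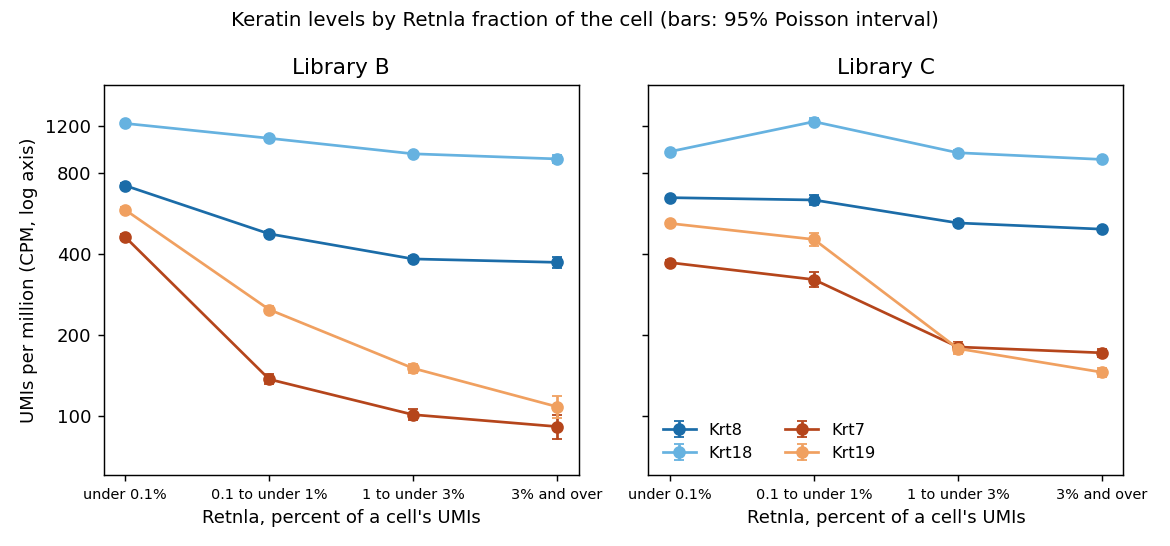
Levels of the 4 keratins in UMIs per 1000000 (log axis) by the share of a cell's UMIs that came from Retnla, in libraries B and C, with 95% Poisson intervals for counting error. Krt7 and Krt19 are lowest in the highest range in both libraries, and Krt18 in library C is highest in the second range.

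The makeup of the keratins differed with these levels. Krt7 and Krt19 gave 15.5% of keratin UMIs in Retnla-high and 35.0% in Retnla-low cells of library B, and 18.9% in Retnla-high and 35.6% in Retnla-low cells of library C. The type II share was 30.8% in Retnla-high and 39.5% in Retnla-low cells of library B, and 38.7% in Retnla-high and 40.8% in Retnla-low cells of library C. At equal depth both types were found in 52.4% of Retnla-high and 71.8% of Retnla-low cells of library B, and in 61.3% of Retnla-high and 70.6% of Retnla-low cells of library C. Mean type I and type II UMIs per cell of library B were 2.20 and 0.997 in Retnla-high and 4.17 and 2.62 in Retnla-low cells. In library C they were 2.18 and 1.37 in Retnla-high and 3.04 and 2.05 in Retnla-low cells. The shares follow from these levels too, so their difference does not show a difference in pairing. Cells with only type I made up 32.5% of Retnla-high and 15.9% of Retnla-low cells of library B, and 24.0% of Retnla-high and 16.8% of Retnla-low cells of library C. Krt7 was found in 18.5% of Retnla-high and 45.6% of Retnla-low cells of library B, and in 27.5% of Retnla-high and 43.8% of Retnla-low cells of library C. The variance over the mean of Krt7 was 1.06 in Retnla-high and 4.24 in Retnla-low cells of library B, at means of 0.209 UMIs per cell in Retnla-high and 1.08 in Retnla-low cells. In library C it was 1.41 in Retnla-high and 2.30 in Retnla-low cells, at means of 0.366 UMIs per cell in Retnla-high and 0.765 in Retnla-low cells. The correlation of Krt7 with Krt19 across cells was 0.04 in Retnla-high and 0.43 in Retnla-low cells of library B, and 0.10 in Retnla-high and 0.28 in Retnla-low cells of library C. Every other pair of the 4 genes also had a lower r in Retnla-high cells of both libraries. For Krt8 with Krt18 it was 0.14 in Retnla-high and 0.42 in Retnla-low cells of library B, and 0.12 and 0.19 in library C. The part of the lower mean counts of Retnla-high cells in these values was not tested.

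Markers of other cells and states also differed with the Retnla fraction. The 10 transitional markers, a list that holds no keratin, summed to 656 CPM in Retnla-high and 2427 CPM in Retnla-low cells of library B, and to 581 CPM in Retnla-high and 1647 CPM in Retnla-low cells of library C. Of these markers, 7 of the 9 measured were lower past the size rule in both libraries, with 1 higher. The 10 ATI markers summed to 954 CPM in Retnla-high and 2303 CPM in Retnla-low cells of library B, and to 1519 CPM in Retnla-high and 3240 CPM in Retnla-low cells of library C, with 5 of 6 measured lower in both. The 10 ATII markers summed to 165232 CPM in Retnla-high and 125382 CPM in Retnla-low cells of library B, and to 140483 CPM in Retnla-high and 123628 CPM in Retnla-low cells of library C. Most of this sum is Sftpc, at 128764 of 149434 CPM in all cells of library B and 116228 of 132001 CPM in library C. Of the 10, 1 was higher and 1 lower past the size rule in both libraries, and 8 were not. Their median log2 fold was 0.08 in library B and 0.01 in library C. Airway secretory markers summed to 192 CPM in Retnla-high and 43.6 CPM in Retnla-low cells of library B, and to 88.1 CPM in Retnla-high and 18.1 CPM in Retnla-low cells of library C. Mesothelial markers, of which nearly all UMIs are of Msln, also a transitional marker, summed to 0.316 CPM in Retnla-high and 16.7 CPM in Retnla-low cells of library B, and to 0.542 CPM in Retnla-high and 19.7 CPM in Retnla-low cells of library C. The part of the ATII, airway secretory and mesothelial markers in the keratin differences was not tested. Among cells below their library's median of the transitional sum, Krt7 was at 88.6 CPM in Retnla-high and 117 CPM in Retnla-low cells of library B (log2 fold -0.39) and at 147 CPM in Retnla-high and 205 CPM in Retnla-low cells of library C (-0.48). Krt19 there had log2 folds of -0.44 and -0.84 in libraries B and C, so 0 of 4 keratins passed the rule among those cells. The share of all genes past the rule among those cells was not counted. Above the median, the log2 folds in libraries B and C were -2.24 and -0.95 for Krt7 and -1.98 and -1.65 for Krt19. Median depth also differed, at 9319 UMIs in Retnla-high and 6468 in Retnla-low cells of library B, and at 3636 UMIs in Retnla-high and 3122.5 in Retnla-low cells of library C.

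The keratins also differed with the transitional sum itself in all 3 libraries. When each library's cells were put in 4 equal-sized groups by it, from low to high, Krt8 was at 341, 425, 511 and 750 CPM in library A, at 363, 375, 435 and 878 CPM in library B, while in library C it was at 460, 486, 548 and 813 CPM. Krt18 was at 501, 611, 687 and 993 CPM in library A, at 815, 879, 993 and 1651 CPM in library B, while in library C it was at 795, 846, 893 and 1335 CPM. Both genes of the main pair were higher in each group than in the one below it, in every library. The share of all genes that rise across the groups in this way was not counted. Other measures differed across these groups too. The share of Retnla-high cells was 63.4% in the lowest and 11.8% in the highest group of library B, and 73.5% in the lowest and 19.9% in the highest of library C. The share of dividing cells was 32.7% in the lowest and 15.2% in the highest group of library B, and 21.4% in the lowest and 8.20% in the highest of library C. ATII markers summed to 344189 CPM in the lowest and 317310 CPM in the highest group of library A, 164434 CPM in the lowest and 106556 CPM in the highest of library B, and 143014 CPM in the lowest and 102938 CPM in the highest of library C. Airway secretory markers in library A summed to 3416 CPM in the lowest and 1594 CPM in the highest group. Median depth, from the lowest group to the highest, went through 3879, 3585, 3829 and 3603 UMIs for library A. For library B it went through 8784, 9389.5, 8709.5 and 6296 UMIs, and for library C through 3546, 3517, 3434 and 2938. The part of these measures in the keratin levels was not tested.

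The minor pair followed the same order, with a steeper last step. Krt7 was at 45.4, 51.7, 65.3 and 104 CPM in library A, at 88.9, 99.7, 130 and 545 CPM in library B, while in library C it was at 145, 178, 227 and 532 CPM. Krt19 was at 28.9, 38.0, 45.8 and 97.3 CPM in library A, at 129, 150, 213 and 729 CPM in library B, while in library C it was at 145, 174, 254 and 755 CPM. In library A, where Retnla-high cells numbered 2, the order was the same but the levels of Krt7 and Krt19 in the highest group were lower than in libraries B and C. The makeup of the transitional sum differed, however. Areg gave 552 of 1211 CPM in library A, but 25.6 of 1187 CPM in B and 34.2 of 1037 CPM in C. Clu was at 113, 387 and 376 CPM, and Cldn4 at 0.440, 45.5 and 55.5 CPM. The groups of library A are thus ordered by another mix of markers than those of B and C.

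**Figure D3:**
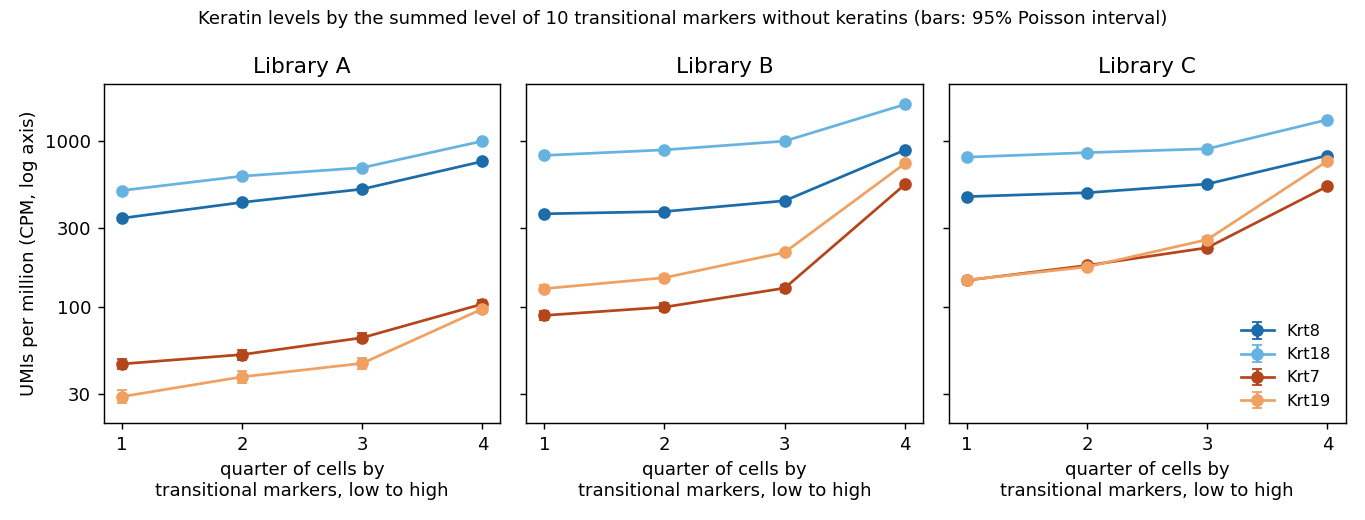
Levels of the 4 keratins in UMIs per 1000000 (log axis) in 4 equal-sized groups of cells ordered by the summed level of 10 transitional markers without keratins, in libraries A, B and C, with 95% Poisson intervals for counting error. All 4 keratins are highest in the highest group of each library, and Krt7 in library B goes through 88.9, 99.7, 130 and 545 CPM. The markers that lead the sum differ between library A and libraries B and C.

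Dividing cells, with any UMI of the proliferation genes Mki67 or Top2a, numbered 171 of library A (1.04%), 1512 of library B (27.0%) and 2558 of library C (17.5%). A deeper cell is more likely to show such a UMI: median depth was 10266.5 UMIs in dividing and 7741 in other cells of library B, and 5213.5 UMIs in dividing and 3141 in other cells of library C. The keratins kept their order of levels in dividing cells, with the minor pair lower than in other cells of libraries B and C. Krt19 was at 193 CPM (186 to 200) in dividing and 316 CPM (310 to 322) in other cells of library B, a log2 fold of -0.71 (-0.77 to -0.65), and at 189 CPM (182 to 197) in dividing and 356 CPM (350 to 362) in other cells of library C, a log2 fold of -0.91. Krt7 was at 138 CPM (132 to 143) in dividing and 220 CPM (215 to 225) in other cells of library B, a log2 fold of -0.68 (-0.75 to -0.61), and at 165 CPM (158 to 172) in dividing and 291 CPM (285 to 296) in other cells of library C, a log2 fold of -0.81.

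Krt8 was at 444 CPM in dividing and 508 CPM in other cells of library B (log2 fold -0.20), and at 524 CPM in dividing and 581 CPM in other cells of library C (-0.15). Krt18 was at 882 CPM in dividing and 1125 CPM in other cells of library B (-0.35), and at 757 CPM in dividing and 1017 CPM in other cells of library C (-0.42). In library A the 4 log2 folds were 0.11, 0.04, 0.23 and 0.24 for Krt8, Krt18, Krt7 and Krt19, with intervals that all include 0. By the size rule 0 of 4 were lower or higher in any library. Of all genes, 0.286% of 5591 were lower in library A, 0.244% of 4913 in B and 0.775% of 5032 in C, and 2.41%, 4.29% and 6.86% were higher. The median log2 fold of all genes measured was 0.07, 0.15 and 0.19 in libraries A, B and C, and -0.12, -0.06 and -0.10 with TMM scaling, under which Krt8 and Krt18 in library A had negative folds. With that scaling Krt7 and Krt19 passed the rule in library C, at -1.08 and -1.18, where 1.97% of 4964 genes were lower, and the share of higher calls among all genes called was 89.4%, 94.6% and 89.8% in libraries A, B and C without TMM scaling and 70.0%, 86.7% and 70.5% with it.

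The type II share was 35.1% in dividing and 33.6% in other cells of library B, and 42.1% in dividing and 38.8% in other cells of library C. At equal depth both types were found in 55.6% of dividing and 62.4% of other cells of library B, and in 57.8% of dividing and 67.6% of other cells of library C. Only type II was found in 9.82% of dividing and 6.63% of other cells of library B, and in 12.2% of dividing and 8.02% of other cells of library C. These shares also depend on the level of each type. The transitional markers summed to 901 CPM in dividing and 1327 CPM in other cells of library B, and to 693 CPM in dividing and 1151 CPM in other cells of library C. The ATI markers summed to 1022 CPM in dividing and 1467 CPM in other cells of library B, and to 1197 CPM in dividing and 2607 CPM in other cells of library C. Among cells below the median of the transitional sum, Krt7 was at 92.5 CPM in dividing and 95.7 CPM in other cells of library B (log2 fold -0.05) and at 122 CPM in dividing and 178 CPM in other cells of library C (-0.53).

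The cells were also split by both measures at once. Krt7 in library B was at 94.7 CPM in dividing Retnla-high, 260 CPM in dividing Retnla-low, 101 CPM in other Retnla-high and 568 CPM in other Retnla-low cells. In library C it was at 123 CPM in dividing Retnla-high, 235 CPM in dividing Retnla-low, 194 CPM in other Retnla-high and 410 CPM in other Retnla-low cells. Krt19 was at 128, 316, 149 and 723 CPM in library B, while in library C it was at 129, 287, 166 and 585 CPM, in the same order of cells. In both libraries non-dividing Retnla-low cells held the highest level of Krt7 and of Krt19, and dividing Retnla-high cells the lowest. In Retnla-low cells alone the dividing over other log2 fold in libraries B and C was -1.13 and -0.80 for Krt7 and -1.19 and -1.03 for Krt19. In Retnla-high cells alone it was -0.10 and -0.65 for Krt7 and -0.22 and -0.36 for Krt19. The difference between these folds was not tested.

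Genes whose proteins act with keratin filaments, and genes of other filaments, were counted by the same size rule, past which the shares of all genes are given above. Of 14 desmosome and plakin genes, which anchor keratin at cell contacts, 3 were measured in both contrasts of libraries B and C and 0 passed the size rule in both. Of these, Pkp4, a plakophilin-family protein, was at 29.1 CPM in dividing and 17.0 CPM in other cells of library B (log2 fold 0.74) and at 54.3 CPM in dividing and 19.6 CPM in other cells of library C (1.42). Of 12 regulators and chaperones of keratin, 6 were measured and 1 was lower in Retnla-high cells of both libraries: Sfn, the 14-3-3 sigma protein that binds keratins, at 39.0 CPM in Retnla-high and 114 CPM in Retnla-low cells of library B (log2 fold -1.52) and 28.4 CPM in Retnla-high and 66 CPM in Retnla-low cells of library C (-1.19). Sfn is also 1 of the 10 transitional markers. Of 8 other intermediate filament genes 2 were measured, and Lmnb1, a nuclear lamin, was at 58.1 CPM in dividing and 13.5 CPM in other cells of library B (log2 fold 2.03) and at 98.7 CPM in dividing and 15.3 CPM in other cells of library C (2.61). Krt23 had log2 folds between -0.26 and -0.11 for dividing over other cells in the 3 libraries, and of -0.14 and -0.12 for Retnla-high over Retnla-low cells.

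Among 1935 genes with at least 50 CPM in libraries B and C, those most like the sum of Krt8 and Krt18 across cells at equal depth were led by Gapdh, a glycolytic enzyme, with r = 0.34 over 5564 cells of library B and 0.22 over 13291 cells of library C. Lgals3, which encodes galectin-3, followed at 0.29 and 0.21, then Bsg, a chaperone of lactate transporters, at 0.28 and 0.20. Aldoa, another glycolytic enzyme, was at 0.30 and 0.19, and the iron store gene Ftl1 at 0.25 and 0.19. The metallothioneins Mt1 and Mt2 were at 0.27 and 0.19 and at 0.26 and 0.17. S100a6, a calcium-binding protein, was at 0.23 and 0.18, Bnip3, a mitochondrial protein induced by low oxygen, at 0.20 and 0.16, and Gadd45b, a stress-response gene, at 0.29 and 0.16. The lowest was the surfactant gene Sftpc, at -0.33 and -0.22.

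In library A, where 2402 genes were ranked over 16079 cells, Areg, a ligand of the EGF receptor, came first at r = 0.22, then Lgals3 at 0.20 and Phlda1 and Actg1 at 0.19 each. For the sum of Krt7 and Krt19, a ranking added after the data were seen, Lgals3 came first at 0.45 and 0.42 in libraries B and C, and the surfactant gene Sftpa1 was lowest at -0.51 and -0.43. Lgals3, S100a6 and Areg are also among the 10 transitional markers. The cells of a library share its preparation and the thinned total, so a gene that takes many UMIs, such as Sftpc, leaves fewer for the others.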

How the data were processed

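The authors deposited raw UMI counts, 1 matrix of genes by barcodes. The submitters' processing notes name bcl2fastq, Cell Ranger 6.0.1, GRCm38 and mm10. Filters of 1000 UMIs, 500 genes and 15% of UMIs from the 37 mitochondrial genes removed 44 barcodes. No doublet caller was run; leaving out the 5% of cells with most UMIs is among the alternatives. GENCODE named 52403 IDs and left 233 unnamed. The members and gene lists were chosen with earlier results of these data known. UMIs were summed over cells, scaled to CPM and compared as log2 folds with a pseudocount of 1 CPM. Intervals are exact Poisson for levels, exact conditional for folds without the pseudocount, and exact binomial (Clopper-Pearson) for shares; a count of 0 allows 3 counts. No test was run, since each library stands alone and cells are not replicates. All 8 members are named, with the 4 leading genes of each list past the size rule in libraries B and C, any other keratin at 20 CPM, and 10 and 5 similar genes, of which 1 is not reported here. The computation, checked on simulated data, used scipy 1.17.1, numpy 2.4.6 and pandas 2.3.3 in Python 3.11.15, matplotlib 3.10.9 for figures and edgeR 4.0.16 (R 4.3.3) for TMM factors. Thinning used seed 1.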

Additional observations from a re-analysis of the deposited data

Results flagged for a closer look

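Krt18 moved in opposite directions with the Retnla fraction in different cells of the same libraries, the only 1 of the 4 simple epithelial keratins to do so in both libraries with intervals that exclude 0. Among dividing cells its Retnla-high over Retnla-low log2 fold was 0.11 (0.05 to 0.18) in library B, at 867 CPM in Retnla-high and 801 CPM in Retnla-low cells, and 0.30 (0.24 to 0.36) in library C, at 804 CPM in Retnla-high and 654 CPM in Retnla-low cells. Among other cells it was -0.58 (-0.61 to -0.54) in library B, at 968 CPM in Retnla-high and 1444 CPM in Retnla-low cells, and -0.13 (-0.16 to -0.10) in library C, at 958 CPM in Retnla-high and 1048 CPM in Retnla-low cells.

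The same held on either side of the median of the transitional markers. Below the median the Krt18 log2 fold was 0.56 (0.49 to 0.63) in library B, at 878 CPM in Retnla-high and 597 CPM in Retnla-low cells, and 0.34 (0.30 to 0.39) in library C, at 864 CPM in Retnla-high and 680 CPM in Retnla-low cells. Above the median it was -0.44 (-0.49 to -0.40) in library B, at 1080 CPM in Retnla-high and 1467 CPM in Retnla-low cells, and -0.10 (-0.13 to -0.06) in library C, at 1025 CPM in Retnla-high and 1096 CPM in Retnla-low cells. The difference between these folds was not tested, since cells are not replicates. The folds within these groups of cells use plain totals. In all cells of library C, TMM scaling moved the Krt18 fold from -0.07 to 0.01, so the small negative folds there depend on scaling. How many of all genes changed direction in this way was not counted.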

How the results depend on the processing

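Under 26 alternatives, 2 of them (cells below or above the median of the transitional markers) chosen after seeing the data, 356 log2 folds of single keratins were recomputed. The 4 folds past the size rule at the main settings were recomputed 76 times, lost it 5 times and changed sign 0 times, while the other folds gained it 10 times and changed sign 16 times. With TMM or median-of-ratios scaling the number of keratins lower in dividing cells of library C was 2. It was 1 in library C with at least 2 Mki67 and Top2a UMIs, and in Retnla-low cells alone it was 2 in library B and 1 in library C. For the Retnla contrast, cells below the median of the transitional markers gave 0 lower keratins in libraries B and C, and cells above it 1 in library C. Krt8 in library B passed the rule at -1.07 with Retnla-low cells at 0 UMIs and at -1.11 in non-dividing cells. For these other choices of cells the share of all genes past the rule was not counted. The share of cells with both keratin types was 67.4%, 95.7% and 83.8% in libraries A, B and C at full depth and 21.2%, 34.0% and 37.2% at 1000 UMIs per cell, and depth thus limits every share of cells. The type II share with Krt8 and Krt18 alone was 42.1%, 31.8% and 37.3%. The cause of these differences was not tested. No paired analysis was possible because the libraries are, per the labels, of different groups and not replicates of 1 group, and the barcodes carry no replicate number. Each contrast was taken within a library.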
